A study of Homo sapiens with 2 samples.

Results

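The genes examined here encode the machinery that licenses DNA replication origins, unwinds the DNA and copies it at the fork. They are 47 genes listed by name, chosen with earlier results of these data known, and every probe set that the platform annotation assigns to 1 of them alone was used. These were 88 of the 54613 probe sets in the deposited table, and 47 of the 19775 genes with a probe set of their own. The arrays came from 2 samples labelled HL60, a human cell line derived from an acute promyelocytic leukaemia and given the cell type hematopoietic stem in the labels. In 1 sample the cells were left untreated. In the other they were exposed for 36 h to eltrombopag at 3 µg/ml; this drug activates the thrombopoietin receptor and chelates iron. Both were grown in RPMI medium with 10% serum, and no vehicle or culture time is given for the untreated sample. The study asked which genes are expressed differently after the drug. With 1 sample per group there is no replicate check, no test of the treatment and no p-value, and drug, vehicle and culture time cannot be told apart.

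Each value is a MAS5 signal, the brightness of a probe set on a linear scale, and each ratio is the eltrombopag signal over the untreated signal, given as log2. Signals below a floor of 56.9, the 60th percentile of both arrays, were raised to it, and a gene counts as measured when its probe set lies above the floor in at least 1 sample. Where a gene has several probe sets, the brightest was used and the others are given beside it. All 47 genes were measured and 45 lay above the floor in both samples. GINS2 and GINS4 lay above it in the untreated sample alone, so they had to come out lower, and their ratios are bounds. Of the 10324 measured genes, the median log2 ratio was -0.12, with quartiles of -0.37 and 0.11, so a typical gene was slightly lower in the eltrombopag sample. Between the 2 brightest probe sets of the same gene, ratios differed by a median of 0.21 over 4373 genes, and that disagreement is the only error that can be seen within these arrays.

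The labelled cell type was checked with marker lists. Of 15 promyelocyte genes on the array, 12 lay above the floor in both samples, MPO, myeloperoxidase, among them at 1556 and 1467. ELANE, SPI1 and LYZ, also typical of myeloid cells, lay below it in both. Of 15 plasma cell genes, 13 exceeded the floor on both arrays, which goes against the label, and JCHAIN, the immunoglobulin joining chain, had signals of 7972 and 4866. Summed over the list, plasma cell genes had a signal of 19782 untreated and 11663 with eltrombopag, a ratio of 1.70, while that of the promyelocyte genes was 17986 and 18152. SRGN, a granule proteoglycan, with 7160 and 7685, and MYB, a transcription factor of early blood cells, with 4349 and 5855, made up much of the promyelocyte sum. Of its 12 measured genes, 5 were at least 1.5-fold lower, led by CEBPA, a transcription factor of the granulocyte line, CSF3R, the receptor for G-CSF, and CTSG, cathepsin G, with log2 ratios of -1.55, -1.17 and -0.84. Only FCRL5 and CD27 of the plasma cell list were below the floor in both. The 13 measured plasma cell genes had a median log2 ratio of -0.93. Of them, 9 were at least 1.5-fold lower, where 11.8% of all measured genes were, and 6 at least 2-fold lower, where 2.27% were. IRF4, TNFRSF17 and SLAMF7 had the lowest ratios, -2.37, -2.10 and -2.01, and 1 gene, DERL3, was higher, at 0.63. These marker differences move with every result below, and their part in them was not tested. Of the other lists, 2 of 9 B and T cell genes, 2 of 10 fibroblast and epithelial genes, 1 of 5 monocyte and macrophage genes and 1 of 6 erythroid and megakaryocyte genes lay above the floor in the untreated sample. In bulk RNA, a smaller share of cells in S phase and less RNA per cell cannot be told apart.

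Replication starts at origins that are licensed before S phase. The origin recognition complex, made of the ORC subunits, binds the origin, and CDC6 and CDT1 help it to load the ring of MCM2 to MCM7, while geminin, from GMNN, holds CDT1 back once S phase has begun. At the start of S phase CDC45 and the GINS complex join the ring to make the active helicase. Polymerase alpha with primase begins each strand, polymerases delta and epsilon extend it, the RFC complex loads the sliding clamp PCNA, RPA coats single-stranded DNA, and FEN1 and LIG1 join the lagging-strand fragments. Behind the fork, chromatin assembly factor 1 deposits histones, and UHRF1 and DNMT1 copy DNA methylation. Many of these genes are transcribed late in G1 and in S phase under E2F transcription factors, which bind short sites near gene starts.

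Because the members share this control in textbook accounts, the stretch before each gene start was read for E2F motif letters. The searched letters were TTTCGCGC, TTTGGCGC, TTTCCCGC and TTTGCCGC on both strands, in RefSeq promoters of build GRCh38.p14 that run from 250 bases before to 50 after the start. A match describes the sequence and does not show a bound site. The 250 bases before the start are printed for 4 members that were lower in the eltrombopag sample (UHRF1, GINS2, MCM6 and PCNA) and for 2 licensing members: ORC3, with a ratio close to 0, and CDT1, close to 0 in the probe set used but lower in its other one. Only promoters with a match are printed, and for UHRF1 and PCNA, which have several promoters, the first such one. The sequences thus show that such letters stand before some members of either kind, and not how often. Capitals mark the matches, and a run longer than 1 motif holds overlapping matches on opposite strands.
UHRF1, chr19:4909251-4909500, plus strand: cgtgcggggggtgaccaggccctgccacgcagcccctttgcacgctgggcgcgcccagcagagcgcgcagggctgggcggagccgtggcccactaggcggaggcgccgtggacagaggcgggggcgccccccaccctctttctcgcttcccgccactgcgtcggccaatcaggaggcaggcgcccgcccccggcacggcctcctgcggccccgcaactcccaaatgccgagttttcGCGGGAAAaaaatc
GINS2, chr16:85688955-85689204, minus strand: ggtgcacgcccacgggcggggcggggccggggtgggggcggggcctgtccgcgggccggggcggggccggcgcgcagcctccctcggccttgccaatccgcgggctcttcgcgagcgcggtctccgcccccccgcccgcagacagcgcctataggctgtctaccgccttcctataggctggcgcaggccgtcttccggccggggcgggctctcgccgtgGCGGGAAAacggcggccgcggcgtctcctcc
MCM6, chr2:135876444-135876693, minus strand: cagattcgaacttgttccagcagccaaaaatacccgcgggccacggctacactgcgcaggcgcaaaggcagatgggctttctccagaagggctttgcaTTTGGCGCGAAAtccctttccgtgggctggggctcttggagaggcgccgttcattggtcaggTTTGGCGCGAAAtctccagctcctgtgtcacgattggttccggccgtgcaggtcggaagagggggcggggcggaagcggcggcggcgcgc
PCNA, chr20:5126623-5126872, minus strand: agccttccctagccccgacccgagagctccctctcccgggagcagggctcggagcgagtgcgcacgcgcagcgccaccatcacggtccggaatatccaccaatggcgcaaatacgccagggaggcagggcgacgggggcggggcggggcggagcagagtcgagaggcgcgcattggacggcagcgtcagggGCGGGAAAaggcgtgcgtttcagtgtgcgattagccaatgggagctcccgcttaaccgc
CDT1, chr16:88803539-88803788, plus strand: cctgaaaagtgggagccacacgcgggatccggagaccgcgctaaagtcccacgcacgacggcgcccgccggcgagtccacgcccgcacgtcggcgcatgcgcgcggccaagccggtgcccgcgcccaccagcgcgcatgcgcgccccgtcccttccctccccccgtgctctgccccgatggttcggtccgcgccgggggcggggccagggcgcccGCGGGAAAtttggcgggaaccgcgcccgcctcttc
ORC3, chr6:87589885-87590134, plus strand: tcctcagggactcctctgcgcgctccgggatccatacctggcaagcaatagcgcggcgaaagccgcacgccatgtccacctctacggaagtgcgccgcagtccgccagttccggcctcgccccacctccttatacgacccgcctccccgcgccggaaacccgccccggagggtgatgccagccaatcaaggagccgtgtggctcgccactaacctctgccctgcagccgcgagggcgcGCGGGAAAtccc

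The 47 genes were lower in the eltrombopag sample as a group, apart from the licensing list of ORC subunits, CDC6, CDT1 and GMNN. The MCM2 to MCM7 ring, which licensing loads, is counted under helicase here. The median log2 ratio of the 47 genes was -0.58, against -0.12 for all measured genes. In the eltrombopag sample 41 of 47 members had a ratio below 0, where 63.4% of measured genes did. At least 1.5-fold lower were 23 members, beside 11.8% of measured genes, and 8 passed 2-fold on the lower side, beside 2.27%. No member was at least 2-fold higher, where 0.649% of measured genes were, and 1, ORC2, was at least 1.5-fold higher, where 3.49% were. All 23 lay outside the licensing genes, whose median of -0.05 was close to that of all genes, while the 38 other members had a median of -0.62. The counts moved with the scaling of the arrays: after median centring, quantile normalization or a lowess fit, which bring the median of all genes to between -0.03 and -0.01, 14 members were at least 1.5-fold lower in each, where 8.12%, 7.55% and 7.89% of measured genes were, and 6, 5 and 5 at least 2-fold lower, where 1.49%, 1.29% and 1.33% were. The split of 2-fold members, 0 higher to 8 lower on the deposited scale, became 1 to 6, 1 to 5 and 1 to 5. Over all measured genes the same split was 67 to 234 and became 97 to 154, 108 to 133 and 104 to 137.

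**Figure D1:**
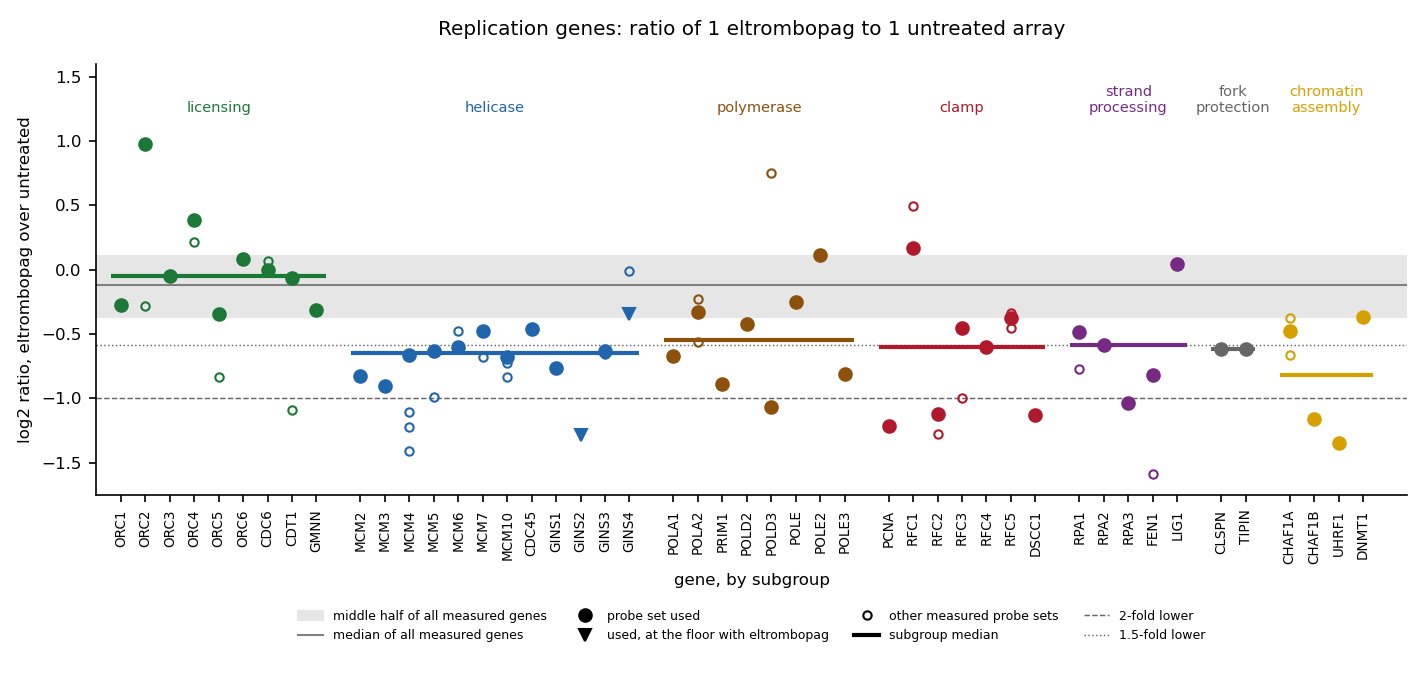
Log2 ratio of the eltrombopag over the untreated array for each of the 47 genes, grouped by role. Filled points are the probe sets used (triangles: at the floor with eltrombopag, so a bound), open circles the other measured probe sets, short bars the subgroup medians, and the grey line and band the median and quartiles of all measured genes. The licensing median of -0.05 lies inside the band and the medians of the other 6 subgroups, from -0.55 to -0.82, below it.

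Licensing genes showed little difference. Of 9 members, 6, or 66.7%, had a ratio below 0, close to the 63.4% of all measured genes. None was 1.5-fold lower in the probe set used, and the highest was ORC2. With probe sets averaged, 1 licensing gene, ORC5 at -0.59, was at least 1.5-fold lower. The list's mean was 0.04, opposite in sign to its median. Among the ORC subunits, ORC2 had signals of 343 untreated and 674 with eltrombopag, a log2 ratio of 0.97. Its second probe set, nearly as bright, went the other way, from 523 to 429 with a ratio of -0.28, so ORC2 has no settled direction. ORC4 went from 592 to 776, a log2 ratio of 0.39, and 0.21 in its dimmer probe set. ORC6 had 2217 and 2343, or 0.08. ORC1, the subunit that is most tied to the cell cycle, had a ratio of -0.27, ORC3 of -0.05 and ORC5 of -0.34, with -0.83 in a dimmer ORC5 probe set. The 6 ORC subunits therefore had a median of 0.02 and moved in both directions.

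The loading factors CDC6 and CDT1 were close to level in the probe sets used. CDC6, the ATPase that recruits the ring together with CDT1, had 267 and 267 in one probe set and 236 and 247 in the other, log2 ratios of -0.0038 and 0.06. CDT1 had 873 and 836, a ratio of -0.06, in the probe set used, which carries the suffix _x_at of sets that can cross-hybridise. Its other probe set went from 121 to 53.2, below the floor, at least 2.13-fold lower. The probe sets of CDT1 thus differ by more than those of most genes, and its level is not settled. GMNN, the inhibitor of CDT1, had a ratio of -0.31. ORC3, CDC6 and CDT1 had ratios above 0, of at most 0.13, after each of the 3 other scalings.

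**Figure D2:**
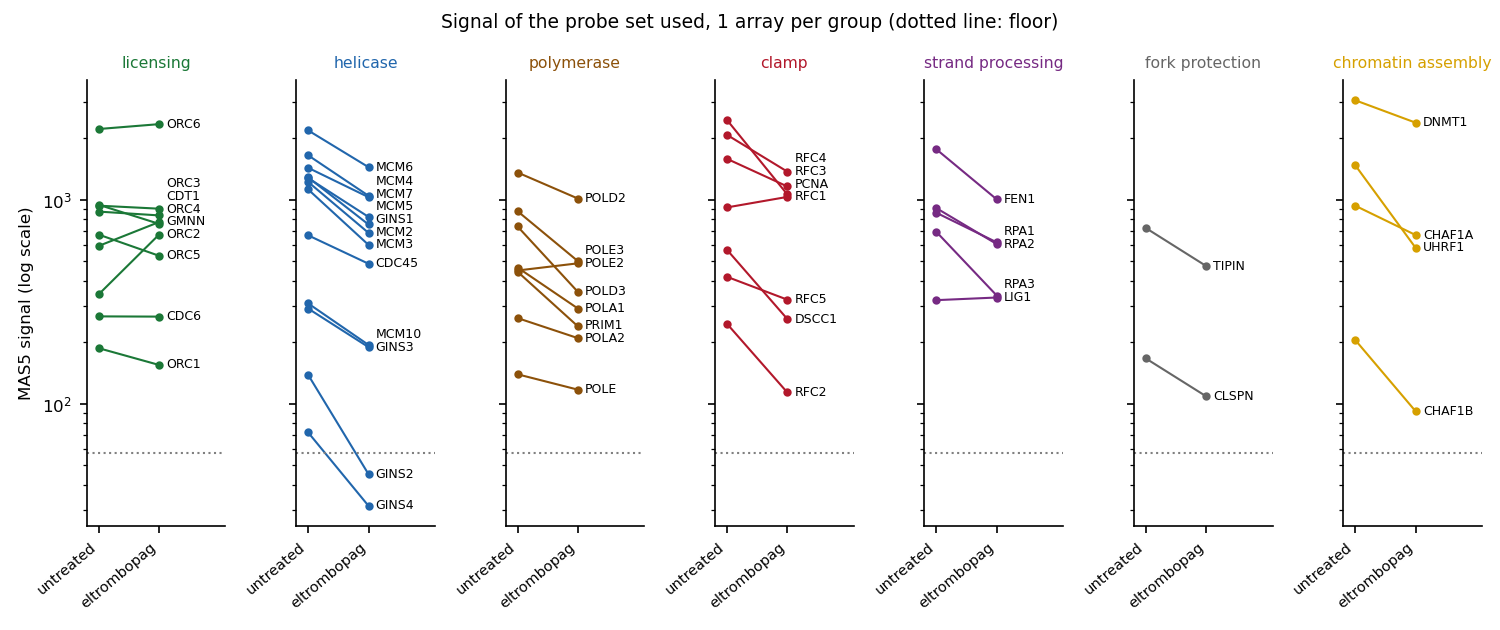
MAS5 signal of the probe set used in the untreated and the eltrombopag array, on a log axis, with 1 line per gene and 1 panel per subgroup; gene names are moved apart where they would overlap, and the dotted line is the floor of 56.9. Lines of the 12 helicase genes all slope down, as those of GINS2 and GINS4 had to. Lines of the licensing genes run level or cross.

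The 10 helicase genes above the floor in both samples all had a ratio below 0, and 8 of them were at least 1.5-fold lower. GINS2 and GINS4, whose ratios are bounds, had to lie below 0, and with them the median was -0.65 and the count at 1.5-fold 9 of 12. The 6 ring subunits moved within a narrow range. MCM3 had a signal of 1121 untreated and 600 with eltrombopag, a log2 ratio of -0.90, and MCM2 had 1220 and 687, a ratio of -0.83. MCM4 went from 1648 to 1044, or -0.66, and MCM5 from 1275 to 822, or -0.63. MCM6 had 2183 and 1442, a ratio of -0.60, and MCM7 had the smallest difference at -0.48. The ring subunits with several probe sets above the floor were lower in each of them. For MCM4 the dimmer sets gave larger differences, from 753 to 322, 334 to 155 and 185 to 69.4, ratios of -1.22, -1.11 and -1.41. A dimmer MCM5 set gave -0.99, one of MCM7 -0.68 and one of MCM6 -0.48. MCM4 therefore passed 2-fold when its probe sets were averaged, at -1.10, but not in the brightest.

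The factors that turn the loaded ring into an active helicase were lower too. GINS2 had 138 untreated and 45.0, below the floor, with eltrombopag, at least 2.43-fold lower. Its other probe sets lay below the floor in both samples. GINS1 had 1284 and 755, a log2 ratio of -0.77, and GINS3 had 292 and 189, a ratio of -0.63, with -0.66 in its second probe set. GINS4 had 72.1 and 31.5, at least 1.27-fold lower, close to the floor even in the untreated sample. A dimmer GINS4 set had 57.3 untreated and 33.8 with eltrombopag. MCM10, which helps to activate the helicase and bring in polymerase alpha, had 310 and 194 in its brightest probe set and log2 ratios of -0.68, -0.72 and -0.83 in 3. CDC45 had a ratio of -0.46. In the probe sets used, 11 of the 12 helicase genes, all but GINS4 and with GINS2 as a bound, had ratios below the lowest licensing ratio, that of ORC5. Over the 38 members outside licensing, 32 did, and so did 27.4% of all measured genes. When the probe sets of a gene were averaged, which took ORC5 to -0.59 and CDT1 to -0.57, the 38 members had 23 below the lowest licensing ratio, where 11.0% of measured genes were.

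Polymerase subunits differed among themselves, with a median of -0.55 over 8 genes and 4 at least 1.5-fold lower. In the complex that starts strands, PRIM1, the catalytic primase subunit, had 443 and 239, a log2 ratio of -0.89, and POLA1, the catalytic subunit of polymerase alpha, 464 and 292, a ratio of -0.67. POLA2, its accessory subunit, had a ratio of -0.33, with -0.56 and -0.23 in dimmer probe sets. POLD3, an accessory subunit of polymerase delta, had 738 and 352, a ratio of -1.07. A much dimmer POLD3 probe set went from 49.3, below the floor, to 96.0, so the mean of the 2 was -0.16. POLD2, another delta subunit, had a ratio of -0.42. Of the delta subunits outside the 47 genes, POLD1, the catalytic one, was level with 366 and 386, a ratio of 0.08, and POLD4 had a ratio of -0.60. Of the polymerase epsilon subunits among the 47 genes, 2 of 3 had a ratio below 0. POLE3, a histone-fold subunit, had 877 and 499, a ratio of -0.81, and POLE, the catalytic subunit, had -0.25. POLE2 had 449 and 487, or 0.12, smaller than the median difference of 0.21 between probe sets of a gene. POLE4, an epsilon subunit outside the 47 genes, had a ratio of -0.54.

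The sliding clamp was among the most different members. PCNA had 2455 untreated and 1060 with eltrombopag, 2.32-fold lower, and 91 of the 10324 measured genes had a lower ratio. It has 1 probe set, so its value has no second measurement. Of the 5 clamp loader subunits, RFC2 had 246 and 113 in one probe set and 243 and 100 in the other, ratios of -1.12 and -1.28. RFC4 had 2076 and 1371, a ratio of -0.60, RFC3 had -0.45 and RFC5 -0.37. Dimmer RFC5 sets gave -0.46 and -0.34. A dimmer RFC3 set went from 114 to below the floor. RFC1, the large subunit, was higher, with 915 and 1030, a ratio of 0.17, and 352 and 497, a ratio of 0.50, in its second probe set. The loader subunits, which work as 1 complex, thus ran from -1.12 to 0.17. DSCC1, which belongs to the alternative loader that acts in sister chromatid cohesion, had 567 and 259, a ratio of -1.13.

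Of the genes that handle single strands and join fragments, 4 of 5 had a ratio below 0 and 2 were at least 1.5-fold lower. The subunits of RPA were all lower: RPA3 had 694 and 338, a log2 ratio of -1.04, RPA2 had a ratio of -0.58, just under 1.5-fold, and RPA1 -0.48, with -0.77 in a dimmer set. FEN1, the flap endonuclease, had 1763 and 1002, a ratio of -0.82, and 401 and 134, a ratio of -1.58, in its second probe set. LIG1, the ligase that seals the same fragments, was level with 321 and 331, a ratio of 0.04. FEN1 and LIG1, which act in succession, thus had different values. Both fork protection genes were lower by similar amounts: CLSPN, which carries the checkpoint signal to CHK1, had 166 and 108, and TIPIN, of the fork protection complex, 725 and 472, each with a ratio of -0.62. Of the 4 CLSPN probe sets only 1 was measured, and TIPIN has 1 probe set, so neither value has a second measurement.

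The genes that rebuild chromatin behind the fork had a median of -0.82 over 4 genes, the lowest of the subgroups at this floor. UHRF1, which reads hemimethylated DNA and recruits DNMT1, had 1473 untreated and 580 with eltrombopag, 2.54-fold lower, the lowest ratio of the 47 genes with the floor as set here. Only 50 measured genes had a lower ratio. CHAF1B, the middle subunit of chromatin assembly factor 1, had 205 and 91.6, 2.24-fold lower. CHAF1A, the large subunit of the same factor, had ratios of -0.48, -0.66 and -0.38 in 3 probe sets. DNMT1, the maintenance methyltransferase, had -0.36. Within each of these pairs of partners, 1 gene was past 2-fold and the other was not. The median of 4 genes moves easily: it was -0.42 with the floor at the 75th percentile, where the CHAF1B signal with eltrombopag lay below the floor and its ratio of -0.26 is a bound, and -1.25 when sets named _x_at or _s_at were left out, where 2 genes remained. At the higher floor it was the smallest difference of the 6 subgroups outside licensing, the others having medians of -0.53 to -0.67, so its rank among them is not settled.

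Repeat measurement of a gene by several probe sets was possible for some members. Of the 47, 23 have 1 probe set, and 17 have several above the floor in both samples. In 15 of those 17 the 2 brightest had the same sign; the exceptions were ORC2 and CDC6. Over all genes with 2 such probe sets, 3169 of 4373 had the same sign. When all of a gene's sets that exceeded the floor on both arrays had to pass, a requirement set after the values were seen, 21 of 45 members passed 1.5-fold on the lower side, where 9.37% of 9601 genes did, and 7 passed 2-fold, where 1.96% did. Of the members' 68 probe sets above the floor on both arrays, 59 had a ratio below 0, where 62.4% of all such probe sets did; they were 19 of 19 for helicase genes and 8 of 13 for licensing genes.

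**Figure D3:**
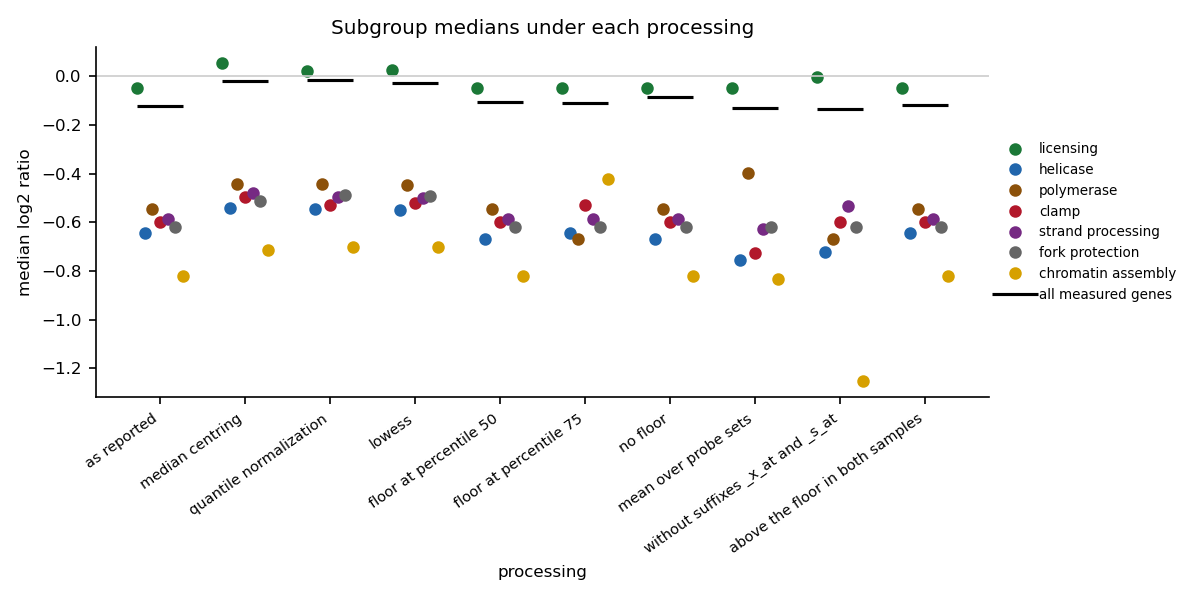
Median log2 ratio of each subgroup (coloured points) and of all measured genes (black bars) under the processing used and 9 alternatives. The licensing median stays between -0.05 and 0.06, above that of all measured genes in each setting, and the medians of the other 6 subgroups run from -0.40 down to -1.25.

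Other genes of replication, from a list of 32 of which 31 were measured, were lower by less. Their median was -0.20. On the lower side 8 genes, or 25.8%, passed 1.5-fold, where 11.8% of all measured genes did, and 3 passed 2-fold, where 2.27% did. The median was -0.44 when sets named _x_at or _s_at were left out. HELLS, a chromatin remodeller tied to DNA methylation, had 1711 and 672, a log2 ratio of -1.35. WDHD1, which links the helicase to polymerase alpha, had 224 and 93.6, or -1.26, ASF1B, a histone chaperone that hands histones to chromatin assembly factor 1, had 743 and 326, or -1.19, and CDC7, the kinase that fires origins, 1263 and 735, or -0.78.

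Nucleotide supply genes had a median of -0.34, and 5 of 14, or 35.7%, were at least 1.5-fold lower, where 11.8% of all measured genes were. RRM2, DCK, NME1 and TK1 had ratios of -1.17, -0.96, -0.85 and -0.82. Of 13 regulators of entry into S phase, 8, or 61.5%, were at least 1.5-fold lower and the median was -0.76. They were led by E2F7, a repressor that E2F itself induces, from 329 to 107 or -1.62, CCNE2, cyclin E2, with -1.28, E2F2 with -1.05 and TFDP1, the E2F partner, with -0.96. Mitosis genes had a median of -0.25. At least 1.5-fold lower were 4 of 31, or 12.9%, close to the 11.8% of all measured genes. A ratio below 0 was seen in 27 of 31, or 87.1%, where 63.4% of all measured genes had one. That share is like the 87.2% of the 47 members, so small differences in this direction were as common among mitosis genes. TTK was 1.53-fold higher, and SMC2, KIF11, CCNB1 and BIRC5 had ratios of -0.79, -0.74, -0.66 and -0.65. The median of the 38 members outside licensing, -0.62, was lower than that of the mitosis genes, but that of the other replication genes, -0.20, was slightly higher than it. The licensing median lay above all of these. These are values of 2 arrays, and the differences between lists were not tested.

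**Figure D4:**
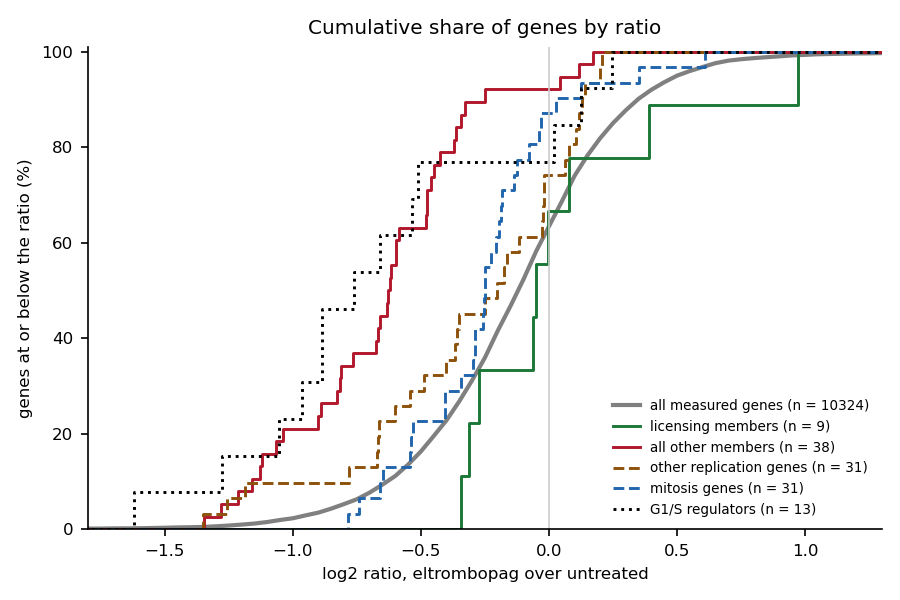
Cumulative share of genes at or below each log2 ratio for all 10324 measured genes (grey), the 9 licensing members, the 38 other members, and 3 related lists. The curve of the 38 other members lies to the left of that of all genes, with a median of -0.62 against -0.12, near that of the G1/S regulators, and the licensing curve starts at -0.34.

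Promoter letters were common among the members but did not sort those with a matched promoter by ratio. Promoters were matched for 40 of the 47 genes, and 22 of them, or 55.0%, held E2F letters in at least 1 promoter, against 3.99% of all 27305 genes with a promoter and 6.91% of the measured ones. Of the 9 licensing genes, ORC3, CDC6, CDT1 and GMNN held them, and of 9 helicase genes with a promoter 7 did, all but MCM10 and CDC45. MCM6 held 4 matches in 2 overlapping pairs, printed above. Members with the letters had a median log2 ratio of -0.54 and members without them -0.47, and 11 of 22 and 7 of 18 were at least 1.5-fold lower. LIG1 and POLE2, with ratios of 0.04 and 0.12, held them, and RFC2, CHAF1B and FEN1, among the lower members, did not. No promoter was matched for MCM4, MCM5, GINS4, POLD3, DSCC1, RPA2 and RPA3. POLD3, DSCC1 and RPA3 were past 2-fold on the lower side and MCM4 and MCM5 past 1.5-fold. RPA2 fell just short of 1.5-fold and GINS4 is a bound. The comparison by ratio thus leaves out several of the lower members. Outside the members, 566 measured genes held the letters, with a median of -0.17 against -0.12 for those without, and 13.1% and 11.4% were at least 1.5-fold lower.

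Of the other letters searched on both strands, CCAAT, the box bound by NF-Y, stood in 62.5% of the members with a promoter and in 39.7% of all genes with one, or 43.9% of the measured ones. GGGCGG, the SP1 box, stood in 77.5% and 48.3%, and in 76.8% of measured genes. The letters TTTGAA or TTCGAA, of the element called CHR in promoters of mitotic genes, stood in 2 of the 40, MCM6 and POLE3, where 19.5% of all genes and 16.1% of measured genes held them. In the 200 bases before the start alone, E2F letters stood in 15 of the 40 members, in 2.81% of all genes and in 4.76% of measured genes.

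**Figure D5:**
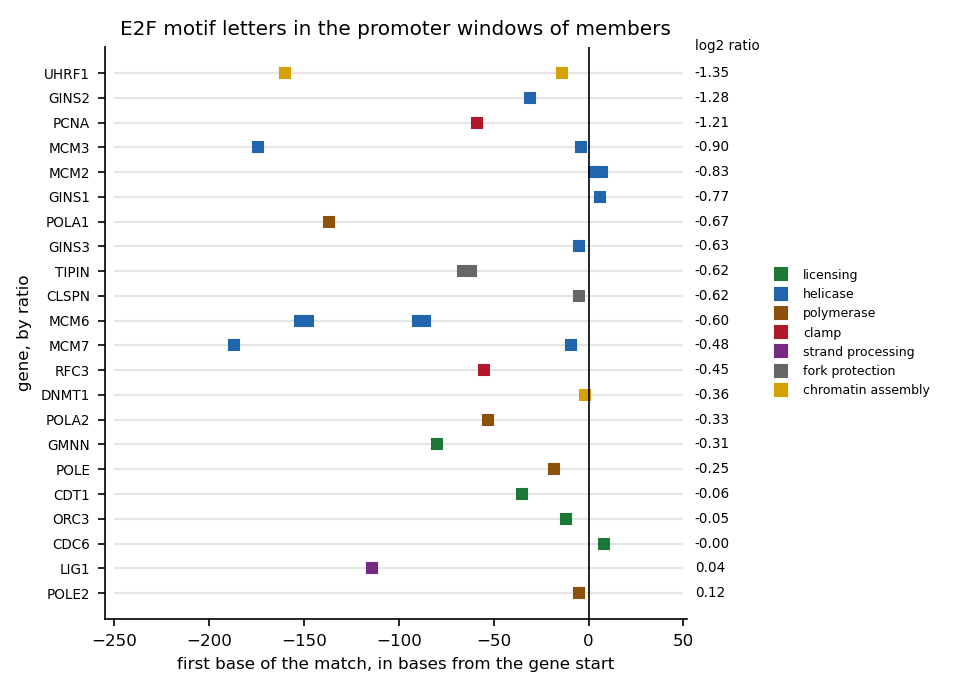
First base of each E2F motif match, in bases from the gene start, in the promoters of the 22 members that hold one (all promoters of a gene on 1 line), ordered by log2 ratio, which is printed at the right and runs from -1.35 for UHRF1 to 0.12 for POLE2. Matches stand between 187 bases before and 8 bases after the start, in members at both ends of the order.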

How the data were processed

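The deposited table holds 1 signal intensity per probe set and array, on a linear scale. The submitters' processing notes name MAS5 without version or scaling target; detection calls were not used here. Per the labels, biotinylated cRNA was made from about 5 µg of total RNA. With 1 array per group, precision is limited, most of all for dim probe sets. The platform annotation gave 41091 probe sets 1 gene, 1801 several and 11721 none; 41037 matched RefSeq identifiers, which changed 0 symbols. Deposited values were floored at the 60th percentile and compared as log2 ratios of the brightest probe set by mean log2 signal. The members, subgroups, other lists and motifs were chosen with earlier results of these data known. Every member is named, with both signals where it was at least 1.5-fold different, had a ratio above 0 or led its subgroup. Related lists are shown by their 4 largest ratios. TTK, POLD1, POLD4, POLE4, SRGN, MYB, IRF4, TNFRSF17, SLAMF7 and DERL3 were named after their values were seen. Alternatives were median centring, quantile normalization, lowess (span 0.3), floors at the 50th and 75th percentile or none (values below 1 raised to 1), means over probe sets or members, omission of sets named _x_at or _s_at, and genes above the floor on both arrays. Scripts (Python 3.11.15, pandas 2.3.3, statsmodels 0.14.6) were tested on simulated data.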

Additional observations from a re-analysis of the deposited data

How the results depend on the processing

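No paired analysis was possible because each group holds 1 sample. A median counts as moved when it changed by more than 0.21 on the log2 scale, the spread between probe sets of a gene, and a count when it changed by more than 1.5 times. Of 149 values of the group, its subgroups, the related lists and the promoters under the alternatives, 135 did not move and 14 did. None of the medians at least 1.5-fold from 0 changed sign. The limit of 0.21 describes single probe sets and is wide for a median. Median centring shifts all ratios above the floor by the same amount, less than 0.21, so a median of such genes could not move. Part of the 135 was thus fixed in advance. Members at least 1.5-fold lower numbered 14 after median centring, quantile normalization and lowess, and members at least 2-fold higher 1 in each. Members at least 2-fold lower numbered 5 after quantile normalization, after lowess and with the floor at the 75th percentile. The chromatin assembly median was -0.42 with that floor. With sets named _x_at or _s_at left out it was -1.25, that of nucleotide supply -0.59 and that of the other replication genes -0.44. With the 200 bases before the start, 1 member held CHR letters. Which of the deposited and the centred scale is nearer to the RNA content of the cells was not tested. Signals near the floor, as for GINS2 and GINS4, limit what a ratio shows.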
